A study of Mus musculus with 4 samples.

Results

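Ion channel subunits were followed across 4 arrays of mouse embryonic fibroblasts (cells of embryonic connective tissue in culture). They were taken as every probe that is not a control and whose gene name in the array files belongs to the voltage-gated, inward-rectifier, background or calcium-activated potassium channels (Kcn), the calcium (Cacn), sodium (Scn) and ClC chloride channels (Clcn), the anoctamins (Ano, named Tmem16 on this array), the TRPC, TRPM and TRPV channels or the HCN channels. This gave 265 probes for 162 genes, of 41174 probes for 27745 gene names on the array. The gene names chose the members, and no measured value did. A total of 90 genes had 1 probe and 72 had several, up to 6. Four-factor cells, at 5% or 21% O2, carried transduced Oct3/4, Sox2, Klf4 and c-Myc, which together can reprogramme a fibroblast to pluripotency, and were taken after 72 hours (day 4 per the labels). Untransduced fibroblasts, also at 5% or 21% O2, were taken after 10 days. A single array of Trizol-isolated total RNA stands for each condition. The strain of mouse, the vectors and the number of embryos are not given in the sources used here.

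Channel subunits are membrane proteins that let ions cross membranes through a pore. Pore-forming (alpha) subunits set the ion and the gate, and auxiliary subunits set trafficking and kinetics. Potassium channels hold the membrane potential negative, voltage-gated calcium channels and many TRP channels admit calcium, and ClC proteins and anoctamins carry chloride, exchange it for protons or scramble lipids. Fibroblasts do not fire action potentials, and their channels are known for their part in membrane potential, volume, calcium entry and contraction.

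Since conditions were not replicated, differences between single arrays carry no p-value, and the array number limits how precise any value is. Levels are log2 signals relative to the 75th percentile of their array, and a level may be set only against that of the same probe on another array. The brightest probe stood for each gene, and a probe counted as measured where the extraction software marked it well above background. The 75th percentile of signal lay between 810 and 1148, and 57.1 to 68.4% of all probes were well above background. The lowest signal well above background lay lower on the four-factor arrays, at -6.90 (5% O2) and -6.85 (21% O2), than on the untransduced arrays, at -5.13 (5% O2) and -4.95 (21% O2). Both four-factor arrays lay on 1 slide and both untransduced arrays on another, so oxygen was compared within a slide. Transduction, days in culture and slide cannot be told apart. In such bulk RNA, fewer cells of a type and less RNA per cell cannot be told apart either. As a check of the labelled cell type, all 10 fibroblast markers were well above background on every array, with summed levels of 8.97 and 9.10 in four-factor cells (5% and 21% O2) and 10.10 and 10.05 in untransduced fibroblasts (5% and 21% O2). Of 9 pluripotency markers, four-factor cells had 7 and 5 above background (5% and 21% O2), against 1 and 2 in untransduced fibroblasts (5% and 21% O2). These counts rest on the unequal limits given above, and they include Pou5f1, the gene of the transduced Oct3/4. Only 2 of these markers were measured in both cultures at 21% O2. In four-factor cells Dppa2 differed by 0.18 and Gdf3 by -3.22 there.

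A smaller share of channel genes than of all genes was well above background on every array. In four-factor cells 87 of the 162 genes were well above background at 5% O2 and 91 at 21% O2, and in untransduced fibroblasts 70 at 5% O2 and 72 at 21% O2. These are 53.7%, 56.2%, 43.2% and 44.4% of channel genes, below the 66.9%, 66.6%, 57.7% and 56.5% of all genes on the same arrays. A total of 55 channel genes were measured on all 4 arrays and 54 on none. Another 22 were measured on both four-factor arrays and neither untransduced array, and 6 only on both untransduced arrays. The detection limit differed between the cultures. With 1 common limit of -4.95, a setting chosen after these counts were seen and which is that of the untransduced array at 21% O2, 59 and 56 channel genes passed in four-factor cells (5% and 21% O2), against 69 and 72 in untransduced fibroblasts (5% and 21% O2), while the share of all genes was 56.1% to 57.2% on every array.

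All 8 ClC genes, which include the vesicle exchangers Clcn3, Clcn5, Clcn6 and Clcn7, were measured on both four-factor arrays and 6 of 8 on all arrays. Of the 36 Kv alpha subunits, which form the voltage-gated potassium pores of excitable cells, 6 were measured on all arrays and 15 on none. Of 14 inward rectifiers (Kir, gene symbols Kcnj), which pass potassium near the resting potential, 8 were measured on none, among them Kcnj2, Kcnj11 and the G protein-gated subunits Kcnj3, Kcnj5 and Kcnj6. Of the 9 calcium channel pore subunits, only Cacna1f, known from the retina, was measured on no array. The sodium channel subunits Scn11a, Scn2b, Scn3a, Scn7a and Scn9a were measured on none, and so were the cold sensor Trpm8 and the epithelial calcium channels Trpv5 and Trpv6.

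**Figure D1:**
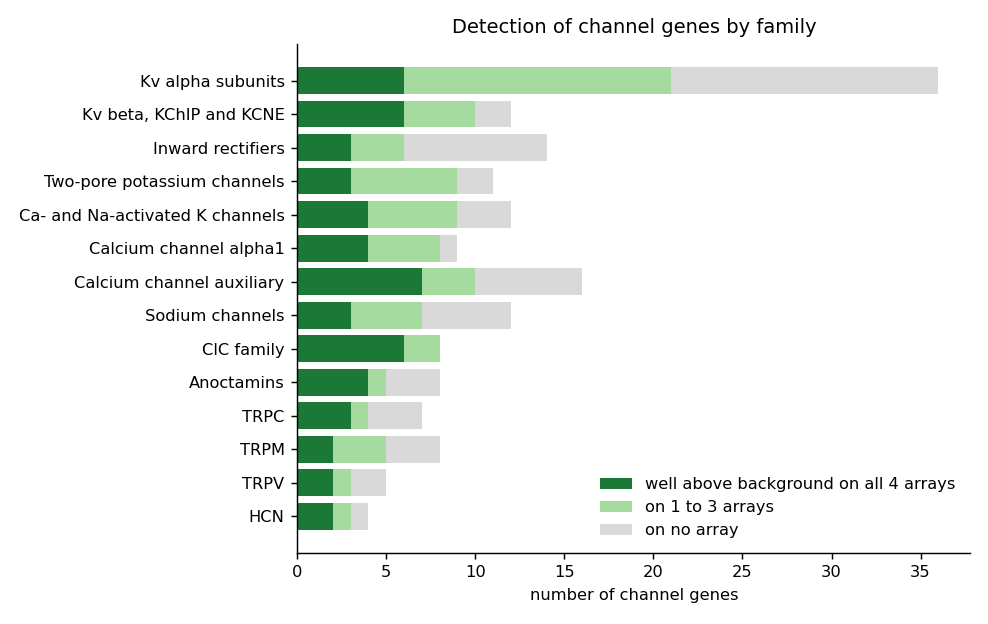
Number of channel genes in each family (x axis) that were well above background on all 4 arrays, on 1 to 3 arrays or on no array. The ClC family has no gene without a measurement, while 15 of 36 Kv alpha subunits and 8 of 14 inward rectifiers have none.

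The first comparison asked how channel expression in four-factor cells differed from that in untransduced fibroblasts. More channel genes were lower than higher. At 5% O2, 60 channel genes were measured on both arrays, of which 6 (10%) stood at least 2-fold higher in four-factor cells and 28 (46.7%) stood lower by as much. Over all genes the shares at this oxygen level were 17.1% higher and 20% lower. At 21% O2, 6 of 60 channel genes (10%) were higher and 25 (41.7%) lower by this rule, against 11.8% and 16.6% of all genes. The median difference of the channel genes was -0.87 at 5% O2 and -0.64 at 21% O2, beside -0.02 for all genes at either oxygen level. When arrays were scaled on their spike-in controls the medians of all genes moved to 0.61 and 0.38 and the channel counts to 11 higher and 17 lower at 5% O2 and 8 higher and 19 lower at 21% O2. Relative to all genes, which such scaling cannot alter, the channel median was -0.85 at 5% O2 and -0.61 at 21% O2. With normexp it was smaller at 5% O2, at -0.53 relative to all genes and -0.56 in itself, and -0.56 relative to all genes at 21% O2. These comparisons share no array with each other. Among the 55 channel genes measured on all arrays, 52 had the same sign at both oxygen levels (94.5%, against 90.0% of all genes so measured). Of these channel genes 39 were lower and 13 higher. A total of 20 were at least 2-fold lower in both and 5 at least 2-fold higher in both (36.4% and 9.09% of the 55, against 14.2% and 10.6% of all genes measured on all arrays).

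**Figure D2:**
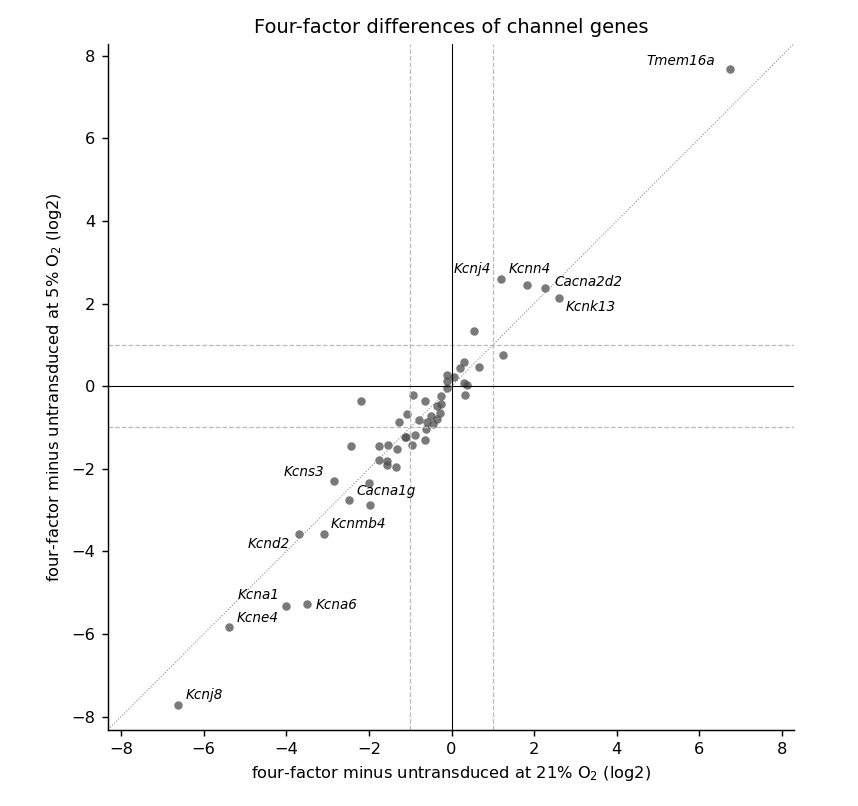
Difference of four-factor cells minus untransduced fibroblasts for the 55 channel genes measured on all 4 arrays, at 21% O2 (x axis) and 5% O2 (y axis), in log2 units. Each point is a gene, dashed lines mark 2-fold and the dotted line equal differences; Tmem16a lies at the upper right (6.73 and 7.68) and Kcnj8 at the lower left (-6.61 and -7.71).

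Tmem16a, now named Ano1, encodes a calcium-activated chloride channel of secretory epithelia, smooth muscle and pacemaker cells of the gut. It stood at 3.30 and 3.86 in four-factor cells (5% and 21% O2), against -4.38 and -2.87 in untransduced fibroblasts (5% and 21% O2). Both four-factor values were far above both untransduced values. The difference of 7.68 at 5% O2, or 206-fold, ranked 1 among the higher differences of the 15506 genes measured on both arrays, and that of 6.73 at 21% O2, or 106-fold, ranked 4 of 15278. Its only probe lies at chr7:144398494-144398553 (mouse build mm8, as for all probes). The other anoctamins measured in both cultures were lower. The scramblase Tmem16f (Ano6) differed by -0.65 and -0.29 (5% and 21% O2), Tmem16k (Ano10) by -0.80 and -0.34, and Tmem16h (Ano8) by -1.18 and -0.88. Tmem16d (Ano4) stood at -4.41 and -4.17 in four-factor cells (5% and 21% O2) and was dim in untransduced fibroblasts, at least 1.65-fold and 1.73-fold higher in four-factor cells. With spike-in scaling 3 of the 4 anoctamins measured in both cultures were higher at 21% O2, in place of 1.

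Kcnj8 encodes Kir6.1, the pore of the ATP-sensitive potassium channel of vascular smooth muscle and pericytes. It stood at -4.69 and -4.10 in four-factor cells (5% and 21% O2), against 3.03 and 2.51 in untransduced fibroblasts (5% and 21% O2). The differences of -7.71 and -6.61, or 210-fold and 97.9-fold lower, ranked 10 and 8 among the lower differences of all genes at 5% and 21% O2. The probe lies at chr6:142522706-142522765. A second probe was dim in four-factor cells and stood at -1.36 and -1.75 in untransduced fibroblasts (5% and 21% O2). Kir6.1 works with a sulphonylurea receptor, and Abcc9, which encodes the receptor SUR2 and was looked up after these values were seen, was dim in four-factor cells and stood at -1.46 and -2.38 in untransduced fibroblasts (5% and 21% O2). Abcc9 was at least 43.4-fold lower at 5% O2 and at least 22.1-fold lower at 21% O2 in four-factor cells. Its other receptor gene, Abcc8, was dim in untransduced fibroblasts.

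Among voltage-gated potassium channels the lower genes included pores and their partners. Kcne4, a single-pass subunit that inhibits KCNQ1 and Kv1 channels, stood at -4.43 and -4.03 in four-factor cells (5% and 21% O2), against 1.40 and 1.35 in untransduced fibroblasts (5% and 21% O2). It was thus 57.0-fold and 41.7-fold lower. Kcna1 (Kv1.1) stood at -4.87 and -5.26 in four-factor cells (5% and 21% O2), against 0.45 and -1.26 in untransduced fibroblasts (5% and 21% O2). Kcna6 (Kv1.6) stood at -4.58 and -4.23 in four-factor cells (5% and 21% O2), against 0.68 and -0.72 in untransduced fibroblasts (5% and 21% O2). The probes of these Kv1 genes lie 66.7 kb apart on chromosome 6, at chr6:126607328-126607387 and chr6:126674025-126674084.

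Kcnd2 (Kv4.2), a pore of the fast transient potassium current, stood at -2.96 and -3.09 in four-factor cells (5% and 21% O2), against 0.61 at both oxygen levels in untransduced fibroblasts. A second Kcnd2 probe was also lower, by -3.50 and -3.07. Kcnip4, a calcium-binding subunit (KChIP) of Kv4 channels, stood at -3.58 and -3.78 in four-factor cells, against -1.78 and -2.03 in untransduced fibroblasts (5% and 21% O2 each). The silent Kv modifier Kcns3 stood at -2.71 and -2.90 in four-factor cells, against -0.41 and -0.05 in untransduced fibroblasts (5% and 21% O2 each). Kcnip4 and Kcns3 were named for being at least 2-fold lower at both oxygen levels. Kcne1l, a single-pass subunit of the KCNE family, stood at -3.99 and -4.32 in four-factor cells, against -1.64 and -2.34 in untransduced fibroblasts (5% and 21% O2 each). Of the Kv4 partners outside the channel names, Dpp6, also looked up afterwards, differed by 0.72 and 0.51. Kcnab1, a Kv beta subunit, differed by 0.13 and -0.12 on its brightest probe, but a second probe was lower by -2.71 at 5% O2 and dim in untransduced fibroblasts at 21% O2. By family, 7 of 8 Kv alpha subunits measured in both cultures were lower at 5% O2 and 6 of 7 at 21% O2. Of these, 6 and 4 were at least 2-fold lower, beside 20% and 16.6% of all genes, and none at least 2-fold higher, beside 17.1% and 11.8%. At 21% O2, 3 of 7 were higher with spike-in scaling, and 1 was at least 2-fold higher with that or quantile scaling. By the lower bounds given below, 2 and 1 other Kv alpha subunits were at least 2-fold higher and 4 and 6 lower (5% and 21% O2).

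Sequence upstream of some of these genes is shown because they hold the widest differences between cultures, or, for Kcna6, also one of the widest between oxygen levels of untransduced fibroblasts. RefSeq entries of build GRCm38.p6 matched 122 of the 162 members; Kcna1 was not among them. Each run covers the 250 bases before the annotated start, on the gene's strand. Capitals mark matches on either strand to the hypoxia element cores ACGTG and GCGTG, the E-box CACGTG, which contains ACGTG, and the octamer ATGCAAAT. The positions are chr7:144738574-144738823 (minus strand) for Ano1, chr6:142571615-142571864 (minus strand) for Kcnj8, chr1:78816661-78816910 (plus strand) for Kcne4 and chr6:126740675-126740924 (minus strand) for Kcna6.
Ano1: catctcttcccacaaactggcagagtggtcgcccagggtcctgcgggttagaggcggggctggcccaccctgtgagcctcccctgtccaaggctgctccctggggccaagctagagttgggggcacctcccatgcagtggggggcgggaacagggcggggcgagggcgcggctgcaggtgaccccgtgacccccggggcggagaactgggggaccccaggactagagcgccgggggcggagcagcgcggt
Kcnj8: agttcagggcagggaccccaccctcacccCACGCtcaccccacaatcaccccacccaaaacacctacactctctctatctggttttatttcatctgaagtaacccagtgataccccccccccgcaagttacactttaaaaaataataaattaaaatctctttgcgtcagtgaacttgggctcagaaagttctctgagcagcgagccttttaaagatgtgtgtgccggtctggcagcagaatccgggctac
Kcne4: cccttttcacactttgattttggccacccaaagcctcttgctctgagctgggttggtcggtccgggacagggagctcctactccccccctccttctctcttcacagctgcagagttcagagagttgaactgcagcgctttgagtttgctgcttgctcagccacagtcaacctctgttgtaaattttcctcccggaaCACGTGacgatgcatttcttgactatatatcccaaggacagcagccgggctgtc
Kcna6: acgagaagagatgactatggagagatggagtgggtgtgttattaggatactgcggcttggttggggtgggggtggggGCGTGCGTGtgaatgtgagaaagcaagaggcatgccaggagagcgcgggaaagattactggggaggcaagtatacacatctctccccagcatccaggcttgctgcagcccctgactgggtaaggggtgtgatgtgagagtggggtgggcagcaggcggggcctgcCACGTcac
The Kcna6 stretch held 1 match to ACGTG and 2 to GCGTG, the Kcne4 stretch 1 E-box with the ACGTG core on both strands, and the Kcnj8 stretch 1 match to GCGTG. Of 32851 such stretches in the table, 38.6% held either hypoxia core, 6.0% the E-box and 1.6% the octamer. Of 165 stretches of channel genes, 66 (40%) held either hypoxia core, 6.7% the E-box and 0.6% the octamer. The Ano1 stretch held none of these letters; it was 72.0% G and C with 16 CpG, beside a median of 6 CpG over all stretches.

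Subunits of calcium-activated potassium channels and of calcium channels were lower as well, with exceptions that were higher. Kcnmb4, a beta subunit of the BK channel, stood at -2.66 and -2.00 in four-factor cells (5% and 21% O2), against 0.91 and 1.09 in untransduced fibroblasts (5% and 21% O2). Kcnn4, the intermediate-conductance channel known from blood cells and proliferating fibroblasts, stood at -2.01 and -2.36 in four-factor cells, against -4.45 and -4.18 in untransduced fibroblasts (5% and 21% O2 each). The BK pore Kcnma1 was well above background only in untransduced fibroblasts at 5% O2, at -4.43. The T-type calcium channel pore Cacna1g stood at -0.51 and -0.41 in four-factor cells, against 2.24 and 2.08 in untransduced fibroblasts (5% and 21% O2 each), and its second probe was lower by -3.19 and -3.12. The T-type pore Cacna1h was lower by -1.45 and -2.44. All 4 calcium channel pores measured in both cultures were lower at both oxygen levels. Of them 3 were at least 2-fold lower, beside 20% and 16.6% of all genes (5% and 21% O2). A second Cacna1a probe (-5.15 and -5.10) and Cacna1b (-6.59 and -6.21) were well above background on the four-factor arrays only. Those levels lie below the limits of the untransduced arrays, so neither gives a direction.

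The alpha2delta subunits, which bring calcium channels to the membrane, went both ways. Cacna2d2 stood at 2.41 and 2.25 in four-factor cells, against 0.04 and -0.02 in untransduced fibroblasts (5% and 21% O2 each), a difference of 2.37 and 2.27. Cacna2d3 stood at -2.94 and -2.75 in four-factor cells, against -0.07 and -0.78 in untransduced fibroblasts (5% and 21% O2 each). Cacna2d1, the main form in muscle, was lower by -1.51 and -1.33. The cytoplasmic beta subunit Cacnb3 differed by 0.46 and 0.67. Cacnb4, another beta subunit, was dim in four-factor cells and at least 12.2-fold and 8.50-fold lower there.

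In the remaining potassium channels, Kcnk13, a background channel, stood at -0.21 and -0.17 in four-factor cells, against -2.33 and -2.77 in untransduced fibroblasts (5% and 21% O2 each). Kcnj4 (Kir2.3) stood at -0.07 and -0.30 in four-factor cells, against -2.67 and -1.50 in untransduced fibroblasts (5% and 21% O2 each). The small-conductance channel Kcnn1 (-1.03 and -0.61) and the background channel Kcnk6 (-1.43 and -1.53) were lower. With the normexp background correction Kcnj4 and Kcnn4 were under 2-fold at 21% O2, at 0.85 and 0.88.

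Scn3b, a sodium channel beta subunit of the immunoglobulin family, was lower by -1.97 and -1.34. The pacemaker subunits Hcn2 (-1.31 and -0.64) and Hcn3 (-0.67 and -1.07) were each at least 2-fold lower at 1 oxygen level. Of 6 measured ClC genes 4 were lower at either oxygen level, and Clcn3 was at least 2-fold higher at 5% O2 (1.33) and less so at 21% O2 (0.55). With spike-in scaling, by contrast, 4 of the 6 ClC genes were higher at 5% O2. Trpm4, a calcium-activated cation channel, was lower by -1.24 and -1.09, Trpv2 by -1.24 and -1.14, and the osmosensitive Trpv4 differed by 0.75 and 1.25. The kinase-coupled magnesium channel Trpm7, the TRPC genes Trpc1 and Trpc6 and the endosomal exchanger Clcn5 differed by less than 2-fold at both oxygen levels. Trpc2 was also under 2-fold on its brightest probe, but its probes did not all go the same way and 1 of the dim ones matched the RefSeq gene Xntrpc, a readthrough, so its values are uncertain.

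Some genes were measured in 1 culture only, and their folds are lower bounds, for which the dim side was set to its own signal or to the detection limit of that array, whichever was higher. Higher by such a bound in four-factor cells were 4 of 27 genes at 5% O2 and 2 of 31 at 21% O2, beside 13.5% and 11.5% of all genes measured only there. Kcnf1, a silent Kv modifier, was at least 4.74-fold and 4.45-fold higher and Kcnk7 at least 3.30-fold and 3.46-fold. Lower by bound were 10 of 10 genes at 5% O2 and 11 of 11 at 21% O2, beside 98.9% and 99.7% of all genes; since the limit of detection was lower on the four-factor arrays, nearly any gene measured only in untransduced fibroblasts passes. Kcns1, a silent Kv modifier, stood at -2.46 and -2.78 in untransduced fibroblasts (5% and 21% O2). In four-factor cells Kcns1 was at least 21.6-fold and 16.8-fold lower, Kcnj10 (Kir4.1), the inward rectifier of glia, at least 22.4-fold and 8.80-fold, and Trpm5, known from taste cells, at least 18.2-fold and 5.43-fold. Kcna3 was at least 9.16-fold and 5.52-fold lower and Kcna4 at least 7.15-fold and 5.06-fold.

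**Figure D3:**
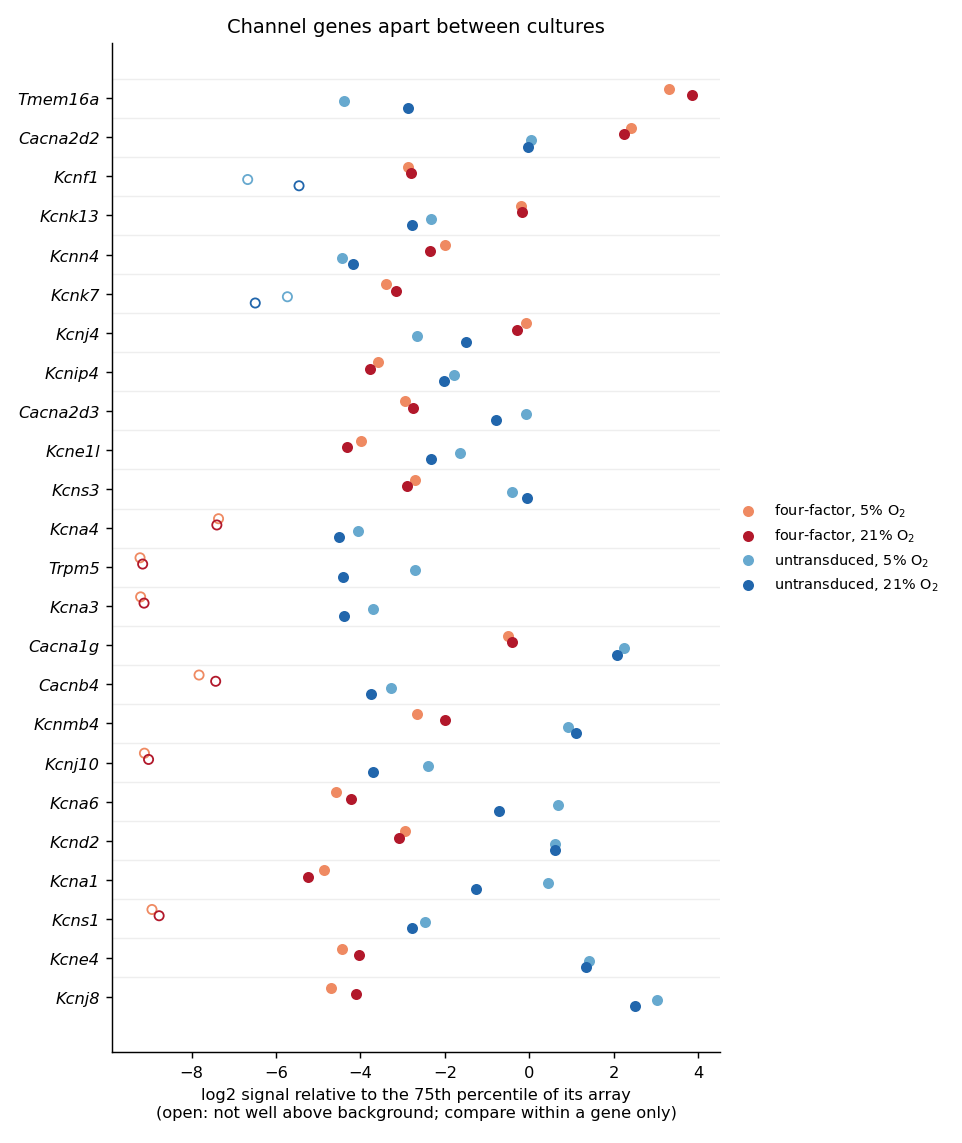
Level on each array (x axis, log2 signal over the 75th percentile of the array) of named channel genes among those furthest apart between cultures in the same direction at both oxygen levels. Filled points are well above background and open points are not. Genes from Tmem16a to Kcnj4 are higher in four-factor cells and those from Kcnip4 to Kcnj8 lower, as the rule that chose them requires.

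All 4 arrays were also fitted together in an additive limma model of culture plus oxygen, over 18359 genes. With 1 residual degree of freedom, it takes as error how far the oxygen effect differed from one culture to the other, and does not hold the spread between separate cultures. Of 93 channel genes fitted, 24 (25.8%) were higher and 39 (41.9%) lower in four-factor cells at an adjusted p under 0.05, beside 27.2% and 22.7% of all genes. Of the 24 higher genes, 15 were dim on both untransduced arrays and 7 were well above background on all arrays; of the 39 lower genes, 28 were well above background on all arrays. Ano1 (Tmem16a) rose by 7.21 (SE 0.29, adjusted p = 0.003, limma with Benjamini-Hochberg). Kcne4 fell by 5.61 (SE 0.20, adjusted p = 0.003, limma), Kcnj8 fell by 7.16 (SE 0.32, adjusted p = 0.00311, limma) and Kcnd2 fell by 3.64 (SE 0.16, adjusted p = 0.00311, limma). With normexp the split was 13 higher and 48 lower, with spike-in scaling 36 higher and 33 lower, and with the mean over probes 15 higher and 44 lower.

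Markers of other cell types moved with these differences, and their part in them was not tested. All 9 macrophage markers were well above background in untransduced fibroblasts and 3 of 9 in four-factor cells, where Emr1, C1qa, C1qc, Mrc1, Tyrobp and Aif1 were dim. The summed macrophage level was -1.84 and -1.31 in four-factor cells (5% and 21% O2), against 2.47 and 0.95 in untransduced fibroblasts (5% and 21% O2). Of the glial and Schwann cell markers Sox10 was lower by -5.22 and -2.83 and S100b by -3.06 and -2.06 in four-factor cells, and the summed glial level was 1.18 and 0.46 there, against 2.61 and 1.25 in untransduced fibroblasts (5% and 21% O2 each). Of 10 fibroblast markers 7 were at least 2-fold lower, with a median of -1.76 and -1.73, Lum at -6.31 and -5.60 and Pdgfra at -4.31 and -3.28. Of 8 epithelial markers, four-factor cells had 7 above background at both oxygen levels, against 7 and 4 in untransduced fibroblasts (5% and 21% O2). Their summed level was 4.08 and 3.45 in four-factor cells, against 1.61 and 1.0 in untransduced fibroblasts (5% and 21% O2 each). Of those measured in both cultures, 4 of 6 at 5% O2 and 2 of 4 at 21% O2 were at least 2-fold higher, beside 17.1% and 11.8% of all genes. Among them were Krt8 (4.60 and 4.12) and Krt19 (2.16 and 2.74). Krt18 (-0.56 and -0.08) and Cldn7 (-0.87 at both) were lower. By bound at 5% O2, Cldn4 was at least 13.1-fold lower and Tacstd1 at least 3.24-fold higher. Of 8 measured smooth muscle and contractile markers 3 were at least 2-fold lower at either oxygen level, among them Myh11 (-1.62 and -2.35), and their summed level was 7.64 and 8.38 in four-factor cells, against 8.03 and 9.26 in untransduced fibroblasts (5% and 21% O2 each). Of 4 neuronal markers measured in both cultures 3 were at least 2-fold higher, beside 17.1% and 11.8% of all genes (5% and 21% O2). These were Nefl (5.42 and 5.35), Stmn2 (3.09 and 2.54) and Tubb3 (2.20 and 2.25), while Mtap2 (-1.22 and -2.03) was lower. Dcx was dim in four-factor cells and at least 5.1-fold and 4.2-fold lower there. The summed neuronal level was 4.10 and 3.95 in four-factor cells, against 1.94 and 2.43 in untransduced fibroblasts (5% and 21% O2 each).

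The second comparison asked how channels differed with oxygen in the reprogramming culture. In four-factor cells no channel gene measured on both arrays was 2-fold apart. Of 83 such genes, 0 stood higher and 0 stood lower at 5% O2 by at least 2-fold, beside 1.25% and 1.07% of all genes. The differences ran from -0.89 to 0.93 with a median of -0.07, which was 0.11 with normexp and 0.08 with spike-in scaling, and 69 of the 83 were under 1.5-fold. The genes nearest to 2-fold were Clcn3, a vesicle chloride-proton exchanger, at 0.93, the BK beta subunit Kcnmb1 at -0.89, Hcn3 at 0.88 and the background channel Kcnk1 at 0.85. A second Clcn3 probe gave 0.89. By bound 1 of 4 genes was higher and 1 of 8 lower, beside 15.7% and 14.7% of all genes measured on that array only. Cacna1i, a T-type pore, was dim at 5% O2 and stood at -5.84 at 21% O2, at least 2.08-fold lower at 5% O2. With spike-in scaling, which moved the median of all genes to 0.14, 3 channel genes were 2-fold higher.

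The third comparison asked the same of untransduced fibroblasts, where 7 channel genes were 2-fold apart. Of 64 measured genes 5 (7.81%) stood higher and 2 (3.12%) stood lower at 5% O2 by at least 2-fold, beside 2.54% and 1.72% of all genes. The median was 0.12, beside -0.04 for all genes (-0.19 beside -0.18 with no filter on dim probes). A total of 39 of the 64 genes (60.9%) were higher, beside 44.8% of all genes. Of the 10 measured Kv alpha subunits 8 were higher, with a median of 0.51. With normexp 7 of these 10 were higher, with a median of 0.20. Kcna1 stood at 0.45 at 5% O2, against -1.26 at 21% O2, a difference of 1.70 or 3.26-fold. Kcna6 stood at 0.68 at 5% O2, against -0.72 at 21% O2, a difference of 1.41 or 2.65-fold. These neighbouring Kv1 genes ranked 90 and 174 among the higher differences of 15256 genes. In four-factor cells Kcna1 differed by 0.38 and Kcna6 by -0.35, the sign of which turned with normexp.

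Trpm5 stood at -2.71 at 5% O2, against -4.41 at 21% O2, a difference of 1.70. Kcnj10 stood at -2.41 at 5% O2, against -3.71 at 21% O2, a difference of 1.30. Lower at 5% O2 was Tmem16a, at -4.38, against -2.87 at 21% O2, a difference of -1.51. Kcnj4 stood at -2.67 at 5% O2, against -1.50 at 21% O2, a difference of -1.17. With normexp only Kcna1 (1.57) and Kcna6 (1.27) stayed past 2-fold.

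By bound 1 of 6 genes was higher and 2 of 8 lower at 5% O2 in untransduced fibroblasts, beside 21.3% and 35.8% of all genes measured on that array only. Kcnc2 (Kv3.2) stood at -3.94 at 5% O2 and was dim at 21% O2, at least 2.02-fold higher. Kcnj9 (Kir3.3), a G protein-gated subunit, was dim at 5% O2 and stood at -2.64 at 21% O2, at least 5.61-fold lower at 5% O2. At 21% O2 it was also 9.14-fold lower in four-factor cells. Cacna1e, the R-type calcium channel pore, was dim at 5% O2 and on both four-factor arrays and stood at -2.83 at 21% O2, at least 4.93-fold lower at 5% O2. The other probes of Cacna1e and Kcnj9 were dim on all 4 arrays, so each value rests on 1 probe, and that of Cacna1e on the 1 array where it was measured.

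**Figure D4:**
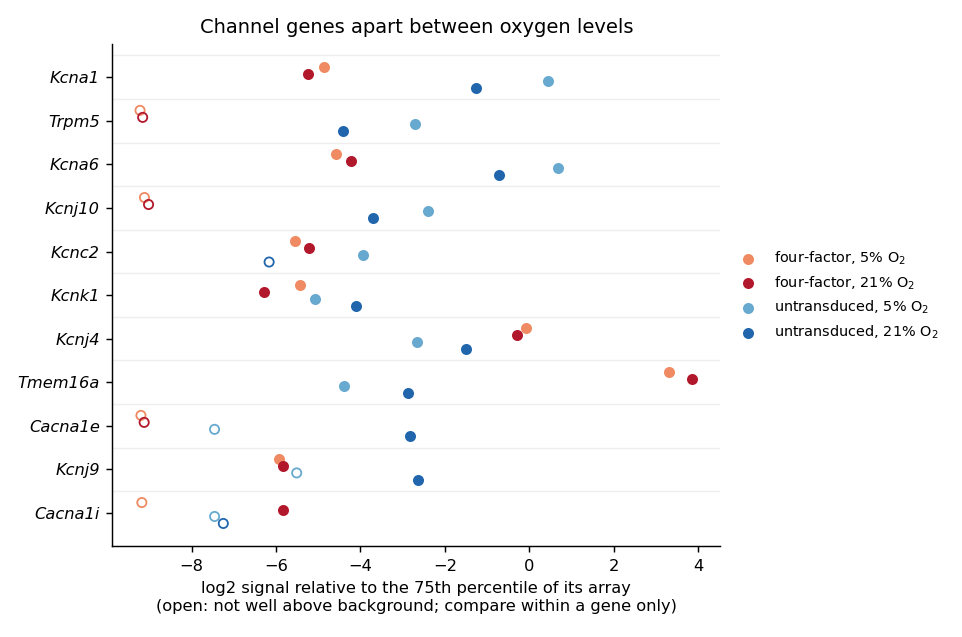
Level on each array (x axis, log2 signal over the 75th percentile of the array) of named channel genes 2-fold apart between oxygen levels in either culture, with Kcnk1. Filled points are well above background and open points are not; Kcna1, Trpm5, Kcna6 and Kcnj10 lie higher at 5% O2 in untransduced fibroblasts, while their four-factor values lie lower or are dim.

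The genes that differed with oxygen in untransduced fibroblasts moved beside markers of other cell types. All 9 macrophage markers were at least 2-fold higher at 5% O2, with differences of 1.11 to 1.98. All 4 measured glial and Schwann cell markers were also at least 2-fold higher, among them Sox10 (1.85), S100b (1.21) and Mbp (1.03), while Gfap was dim. The summed glial level was 2.61 at 5% O2, against 1.25 at 21% O2, and the summed macrophage level 2.47, against 0.95. Smooth muscle and contractile markers were lower, 7 of 9 at least 2-fold, with Cnn1 at -1.90. Of 7 epithelial markers measured in four-factor cells, 3 rose 2-fold or more at 5% O2, while 6 of the 9 macrophage markers were dim. Glial markers in four-factor cells went both ways with oxygen, 3 of 5 being higher, with Mbp at 1.02 and Sox10 at -0.55. Their summed level was 1.18 at 5% O2, against 0.46 at 21% O2. Contractile markers in four-factor cells were lower at 5% O2 in 7 of 8 cases, with a median of -0.74, but 0 fell by 2-fold. The part of such cells in the channel differences was not tested.

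Oxygen differences were computed on separate arrays in each culture. Of 55 genes measured on all arrays 31 (56.4%) had the same sign, against 55.4% of all genes, and across these genes, which are no replicates, Pearson r was 0.24 and Spearman rho 0.30. None could be at least 2-fold in the same direction in both, since no measured channel gene was 2-fold apart in four-factor cells. Over all genes 0.22% were at least 2-fold higher in both and 0.2% lower. Kcnk1 (TWIK-1), a background channel, differed in opposite directions, at -5.44 at 5% O2 against -6.29 at 21% O2 in four-factor cells, and at -5.09 at 5% O2 against -4.11 at 21% O2 in untransduced fibroblasts. In the limma model 0 of 18359 genes passed for the oxygen term, that is 0% higher and 0% lower, and so did 0 of 93 channel genes (smallest adjusted p over all genes 0.437, limma). At an unadjusted p under 0.05, 8 channel genes were higher and 7 lower (16.1% of the 93, against 7.62% of all genes). Kcna1 had an estimate of 1.04 (SE 0.37, adjusted p = 0.654, limma). With spike-in scaling 8 channel genes passed, 4 in each direction.

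**Figure D5:**
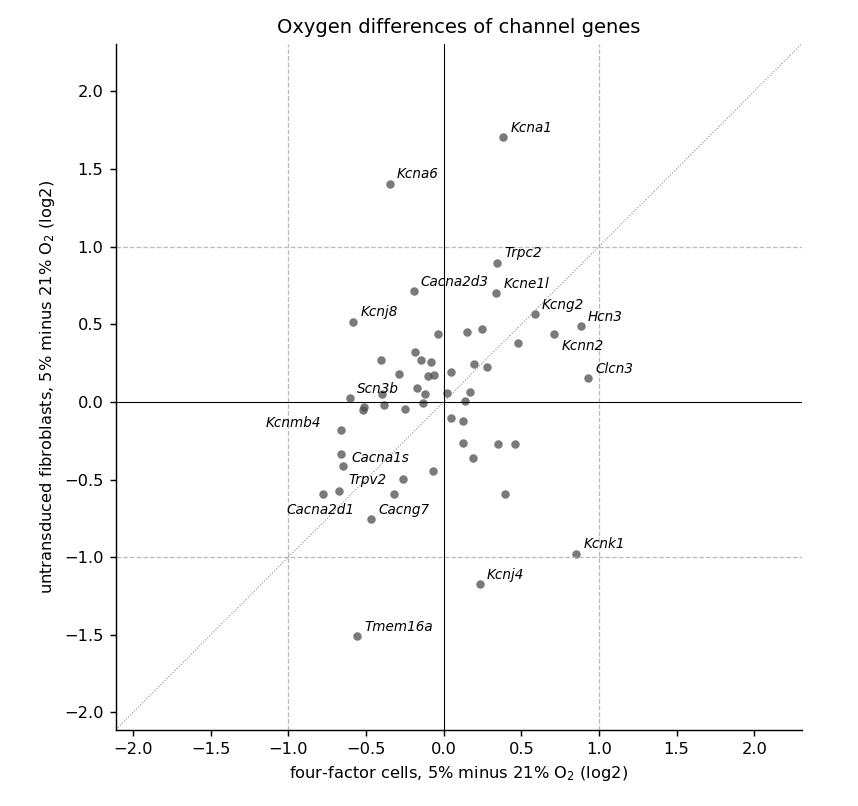
Difference of 5% minus 21% O2 for the 55 channel genes measured on all 4 arrays, in four-factor cells (x axis) and untransduced fibroblasts (y axis), in log2 units. Each point is a gene and dashed lines mark 2-fold; no gene passes 2-fold on the x axis, and Kcna1, Kcna6, Kcnj4 and Tmem16a pass it on the y axis.

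Other ion transport genes, taken from lists of related genes, were set beside the channels. Of 11 measured intracellular and store-operated calcium channels at either oxygen level, 1 was at least 2-fold higher in four-factor cells. This was the inositol trisphosphate receptor Itpr3 (1.49 at 5% O2 and 1.99 at 21% O2). Over all genes 17.1% and 11.8% were higher by as much (5% and 21% O2). Lower were 4 at 5% O2 and 3 at 21% O2, beside 20% and 16.6% of all genes, among them the polycystin Pkd2 (-1.97 and -1.82), the ryanodine receptor Ryr3 (-2.39 and -1.26) and the calcium sensor Stim1 (-1.59 and -1.10). The gap junction connexin Gjb2 was lower by -1.83 and -2.42, and the pannexin Panx1 higher by 1.17 and 1.26. Of 13 measured pumps and exchangers 0 were at least 2-fold higher, beside 17.1% and 11.8% of all genes (5% and 21% O2). Lower by as much were 4 at 5% O2 and 3 at 21% O2, beside 20% and 16.6% of all genes. Among them was the sodium pump subunit Atp1b2 (-1.97 and -1.25). Tmc6 (1.72 and 2.02) was higher and Best1 (-2.33 and -1.29), a calcium-activated chloride channel, lower. With oxygen, Gja3 (-1.33), Atp1b1 (-1.16) and Atp2b2 (-1.14) were lower at 5% O2 in four-factor cells, and Ryr3 (1.19) and Best1 (1.17) were higher at 5% O2 in untransduced fibroblasts.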

How the data were processed

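One-colour (Cy3) Agilent arrays of 4 samples, labelled by the Quick Amp method per the labels' protocols, were used. Spot intensity values were deposited by the authors as the scanner software gave them, namely Agilent Feature Extraction 9.5.3.1 with array design 014868 and positions in build mm8, per the file headers. These processed intensities had background subtraction and spatial detrending but no scaling across arrays, per the file headers. The authors also deposited a table of log2 values. It equals the scaling described next to within 0.001 for 99.8 to 99.9% of probes, so scale and direction are known, and it is not centred (column medians -3.86 to -3.69).

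For each array, log2 processed intensity minus its 75th percentile over spots that are not controls (43379 of 45018) was computed. Between 65 and 115 outlier spots per array were left out, and repeated spots of a probe, whose standard deviation was 0.065 to 0.108 log2 units, were averaged; that spread says nothing of the spread between cultures. Each gene took the probe with the highest mean over the arrays. Of genes at least 2-fold apart between cultures, 9 at 5% O2 and 5 at 21% O2 had several measured probes, and in none did these differ in direction. With oxygen, 0 of the genes 2-fold apart had several measured probes, so direction could not be checked. Among all channel genes with several measured probes, directions differed with oxygen in 7 of 26 (four-factor cells) and 4 of 18 (untransduced fibroblasts). Between cultures they differed in 4 of 17 at 5% O2 and 3 of 14 at 21% O2. RefSeq accessions (GRCm38.p6) matched 201 of 265 channel probes, 200 to the same gene. A gene was counted when at least 2-fold apart with both arrays well above background, and given as a lower bound when 1 array was dim.

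limma 3.58.1 in R 4.3.3 (lmFit, eBayes, Benjamini-Hochberg over all genes) took terms for culture and oxygen over genes with 2 or more arrays well above background, and was tested on simulated data. Python 3.11.15 and pandas 2.3.3 did the rest. Named genes were those 2-fold apart with oxygen (bounds included), the furthest shared by both four-factor comparisons (up to 12 per direction, 10 by bound) and those with opposite oxygen differences; others complete a family count, and some genes that these rules cover are not reported here. The members and lists were chosen with earlier results of these data known, and partner genes and sequence motifs after values were seen. Alternatives were normexp (offset 50), quantile and spike-in scaling (8 probes), other filters on dim probes, the mean over probes and the deposited table.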

Additional observations from a re-analysis of the deposited data

Results flagged for a closer look

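The background potassium channel Kcnk1 moved in opposite directions with oxygen in the cultures. It was higher by 0.85 at 5% than at 21% O2 in four-factor cells and lower by -0.98 in untransduced fibroblasts, so that the oxygen differences were 1.83 apart. The difference between the cultures was not tested, since each condition had 1 array, and neither value reached 2-fold. Its single probe lay near the limit of detection on most arrays. It stood at -5.44 and -6.29 in four-factor cells (5% and 21% O2), against limits of -6.90 and -6.85, and at -5.09 in untransduced fibroblasts at 5% O2, just above the limit of -5.13. The lower value in untransduced fibroblasts rests on that array.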

How the results depend on the processing

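Of the differences recomputed under every alternative, which are those of genes at least 2-fold apart on both arrays that the text names by rule and those of Kcnk1, none changed direction. Smaller ones could turn, among them Tmem16f and Tmem16k at 21% O2 with spike-in scaling and Kcna6 with oxygen in four-factor cells with normexp. The counts of channel genes at least 2-fold apart stayed within 1.5 times except as follows. For 5% against 21% O2 in four-factor cells the count of 0 became 3 with spike-in scaling, 12 with no filter on dim probes and 6 with the looser detection mark (positive and significant). In untransduced fibroblasts the count of 7 became 2 with normexp, 26 with no filter and 16 with the looser mark. For four-factor against untransduced cells the count of 34 at 5% O2 became 107 with no filter and 53 with the looser mark, and the count of 31 at 21% O2 became 101 and 48. In the limma model the oxygen count of 0 became 8 with spike-in scaling, and the culture count of 63 became 39 when only the 55 channel genes measured on all 4 arrays were fitted. These looser filters add genes near background, and the cause of the other changes was not tested. With normexp the widest differences were smaller, at 6.38 and 6.12 for Tmem16a, -6.31 and -5.67 for Kcnj8 and -3.80 and -2.53 for Kcna1 (5% and 21% O2). With 1 array per condition no replicate could be left out. No paired analysis was possible because each group holds 1 sample with no replicate number; the additive limma model compares the cultures within an oxygen level. Genes dim on all 4 arrays (54 of 162) have no comparison here.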
